A study of Mus musculus with 12 samples.

Results

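Gene expression was measured by bulk RNA sequencing in mouse epiblast stem cells (EpiSCs) that differentiated as embryoid bodies labelled as kept without doxycycline, and day 4 was compared with day 2. EpiSCs are pluripotent cells in the primed state, the counterpart of the epiblast just before gastrulation, and embryoid bodies are free-floating aggregates in which such cells leave pluripotency. The comparison takes 6 of the 12 libraries of the study, 3 labelled NoDox_d2 and 3 labelled NoDox_d4, chosen by their labels alone. Both groups came from EpiSCs that had been converted in culture from embryonic stem cells. They carried Mixl1DOX, a transgene that makes FLAG-tagged Mixl1 when doxycycline is added. Both groups are labelled as not given doxycycline. The Mixl1 level of 1 library was far above the others, as given below with its values, and the cause was not tested. No line without the transgene was used here. The bodies were kept on a shaker in medium with 15% fetal calf serum. The labels do not say whether the line is 1 clone, nor whether the replicates were separate cultures. A p-value here therefore measures the spread between libraries of a group, which may be technical. In the main fit this spread was estimated from all 12 libraries of the study. These include the groups D1Dox_d2 and D3Dox_d4, given doxycycline at 1 µg/mL.

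The 6 libraries held between 25238705 and 28020036 read pairs assigned to genes, and between 2.76% and 5.21% of them fell on genes encoded in mitochondria. Replicate 1 stood apart from replicates 2 and 3 on both days. Pearson's r of log2 expression across genes was 0.991 between replicates 2 and 3 of day 2 and 0.957 and 0.961 between replicate 1 and each of them. On day 4 the same values were 0.990 for the pair and 0.960 and 0.961 for replicate 1. On the first principal component, which held 48.6% of the variance, the replicates 1 had the lowest scores of their day, -92.2 against 7.22 and -1.37 on day 2 and -28.1 against 55.9 and 58.5 on day 4. The labels name no batch that separates them. For this reason the change without both replicates 1 is given beside the results that depend on them.

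**Figure D1:**
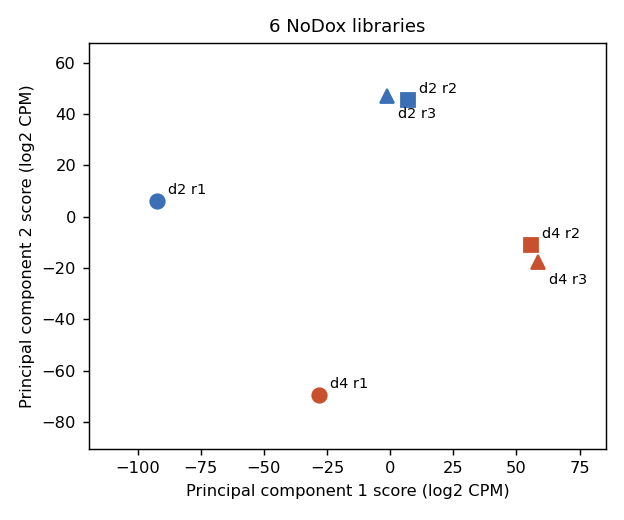
Scores of the 6 NoDox libraries on the first principal component (x axis, 48.6% of the variance) and the second (y axis, 29.2%) of log2 CPM. Colour marks the day and shape the replicate (d2 r1 is day 2, replicate 1), and both replicates 1 lie to the left of replicates 2 and 3 of their day.

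Mixl1, the homeobox gene that doxycycline would induce, checks the labels. Levels are in CPM, a gene's share of the assigned reads of its library, scaled to the same total in each. Mixl1 stood at 91, 0.593 and 1.15 CPM in replicates 1, 2 and 3 of day 2 and at 1.62, 1.83 and 1.11 CPM on day 4. The library labelled NoDox_d2 replicate 1 was therefore far above the other 5. Gene counts cannot tell transgene reads from those of the endogenous gene. The fitted change was -4.35 ± 1.40 on the log2 scale (standard error, SE, 3 libraries a group) with an adjusted p of 0.0703 in edgeR's quasi-likelihood test with Benjamini-Hochberg adjustment, and it was 0.73 without both replicates 1. An exact two-sided permutation test of Mixl1 CPM gave p = 0.9, where 0.1 is the smallest value that 3 against 3 libraries allow. The library at 91 CPM sets the size of the difference in every arrangement. This p therefore cannot tell whether Mixl1 changed between the days.

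Primed pluripotency rests on a small network of transcription factors, among them Oct4 (made from Pou5f1) and Nanog, and on Nodal and FGF signals. As the epiblast gastrulates these genes are shut down, cells pass through the primitive streak to become mesoderm or endoderm, and cells that stay behind become ectoderm, which includes the neural plate. Hox genes are then switched on in order along their clusters, and Hedgehog and Notch signals pattern the neural tube and the somites.

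Of 18109 genes tested, 1926 passed an adjusted p of 0.05 in edgeR's quasi-likelihood test, which is 10.6%. Of these, 921 were higher on day 4 (5.09% of those tested) and 1005 were lower (5.55%). The median change of all genes tested was 0.0151 on the log2 scale, that of the called genes 1.10 and -1.17, and 1083 of them changed by more than 2-fold. The libraries of the 2 days did not overlap for 1846 of the called genes, whereas this held for 23.2% of all genes tested. These counts come from a fit in which all 12 libraries set the spread, as described under processing. Besides the NoDox libraries that fit held the groups D1Dox_d2 and D3Dox_d4, given doxycycline at 1 µg/mL. With only the 6 NoDox libraries the same test called 206 genes, 1.24% of those tested, all of them among the 1926. Without both replicates 1 it called 4534 of 18613 genes tested (24.4%), 2489 of them higher and 2045 lower. List counts given below without both replicates 1 are to be read beside these larger numbers. The 4534 genes included 1791 of the 1926. The call held in each of the 6 fits that left out 1 library for 871 genes.

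**Figure D2:**
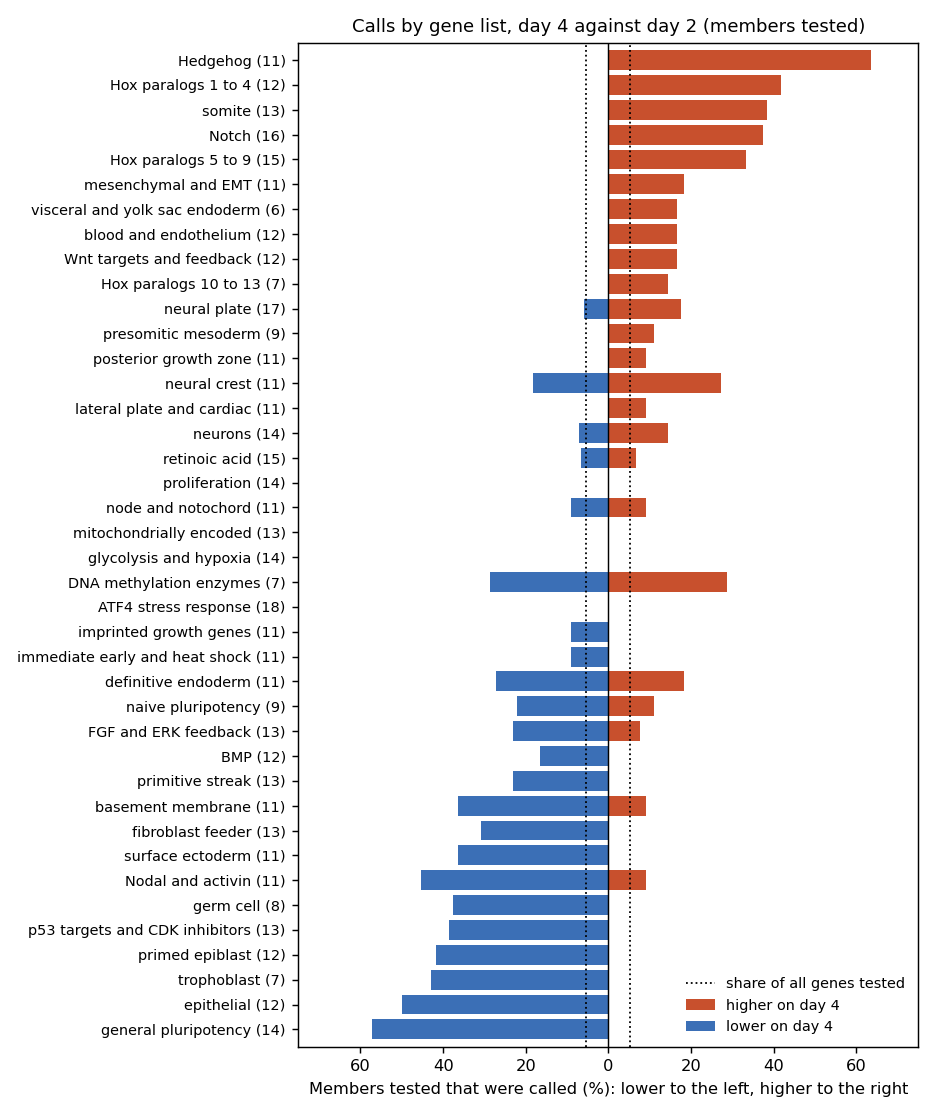
Share of the tested members of each gene list (number tested in brackets) that were called lower (left) or higher (right) on day 4. The dotted lines mark the shares over all genes tested, 5.55% and 5.09%, and 7 of 11 Hedgehog genes were called higher and 8 of 14 general pluripotency genes lower. The interferon-inducible and actin lists are not drawn.

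Most genes of the pluripotency network tested fell. Of 14 genes of general pluripotency tested, 8 fell and 0 rose, with a median change over the list of -1.22 on the log2 scale. Of the list 1 rose and 11 fell without both replicates 1, and 0 and 3 with the 6 NoDox libraries alone. Pou5f1, which encodes Oct4, had 644, 349.6 and 422 CPM on day 2 and 98.2, 137 and 89.8 CPM on day 4. All 3 day 4 libraries lay below all 3 of day 2, and the log2 change was -2.12 ± 0.22 (SE, n = 3 a group, edgeR adjusted p = 0.000241). Nanog, a homeobox factor of the same network, had 164, 249 and 253 CPM on day 2 and 28.6, 73.6 and 40.1 CPM on day 4, again with no overlap (-2.22 ± 0.31, adjusted p = 0.00126). The deepest falls of the list were those of L1td1, which encodes an RNA-binding protein of pluripotent cells, with 340.3, 103 and 147 CPM on day 2 and 32.6, 19.2 and 14.9 CPM on day 4 (-3.14 ± 0.42, adjusted p = 0.0011), and of Tdgf1. The latter encodes the Nodal co-receptor Cripto and had 294, 161 and 243 CPM on day 2 and 19, 42.9 and 19.4 CPM on day 4 (-3.10 ± 0.32, adjusted p = 0.000228). The other falls were those of Zscan10 (-1.84 ± 0.25, adjusted p = 0.00126), Utf1 (-1.73), Trim71 (-0.67) and Tet1 (-0.61). The change of Utf1 was -2.54 without both replicates 1, and its call was lost without day 2 replicate 1 or 2 or 3 or day 4 replicate 2 or 3 (adjusted p from 0.000619 to 0.134 over the 6 such fits). Tet1 lost its call without day 2 replicate 1 or 2 or day 4 replicate 2 or 3 (adjusted p from 0.0224 to 0.129 over the 6 such fits) and with the replicate number as a block (adjusted p = 0.0645). Sox2, which the neural plate shares with the pluripotent epiblast, did not pass. It had 118, 277 and 248 CPM on day 2 and 189, 407 and 409 CPM on day 4, so that the days overlapped, and its log2 change was 0.65 ± 0.32 (adjusted p = 0.232). It passed as higher without both replicates 1 (0.64, adjusted p = 0.00103). Exons of Pou5f1 overlap a gene on the opposite strand over 14.1% of their bases, and the reads were counted without regard to strand.

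**Figure D3:**
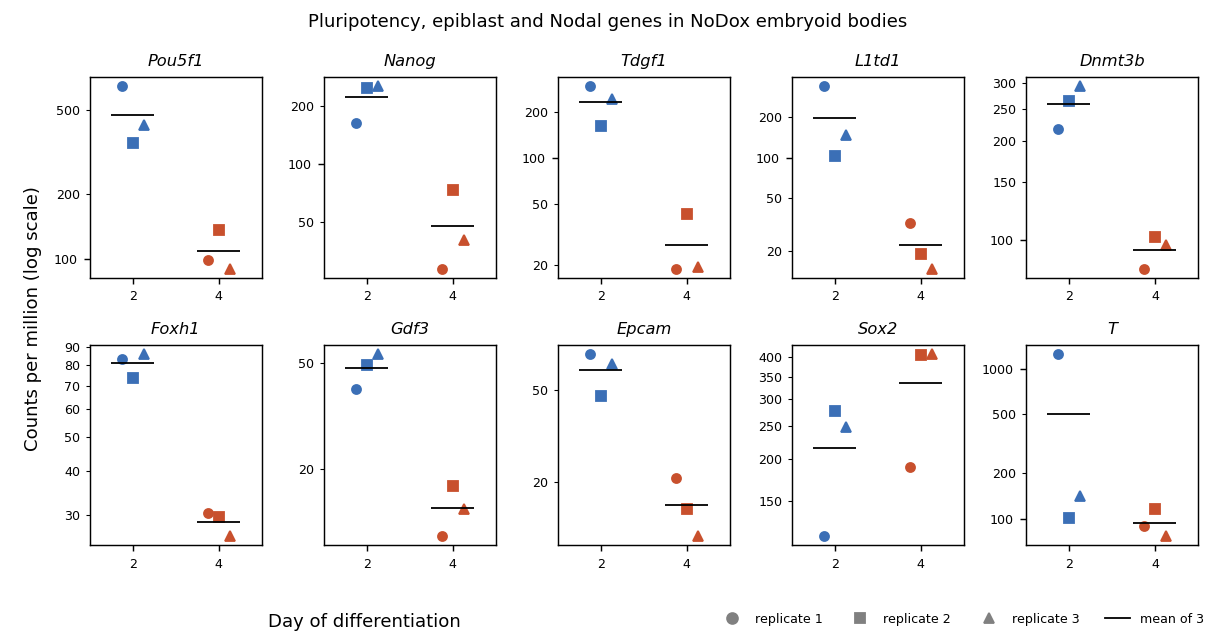
CPM (y axes, log scale) of 10 genes on days 2 and 4 (x axes). Points are libraries, with shapes for replicates, and bars the mean of 3. In 8 of the genes all day 4 points lie below all day 2 points, whereas in Sox2 and T the days overlap.

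Genes that mark the primed epiblast fell in part. Of 12 tested, 5 fell and none rose by the edgeR test. Of the list 2 rose and 8 fell without both replicates 1, and 0 and 1 with the 6 NoDox libraries alone. Dnmt3b, the de novo DNA methyltransferase of the epiblast, had 217, 264 and 293 CPM on day 2 and 81.7, 102 and 96.1 CPM on day 4, with no overlap and the lowest adjusted p of this list (-1.47 ± 0.13, adjusted p = 9.27e-05). Fgf5, the growth factor used to mark the epiblast after implantation, had 31.7, 12.3 and 18 CPM on day 2 and 2.33, 7.4 and 7.03 CPM on day 4 (-1.89 ± 0.43, adjusted p = 0.0164). Pou3f1 (-0.79), Foxd3 (-1.98) and Nodal (-1.31) were the other 3. Fgf5 was lowest in replicate 1 of day 4, and its change without both replicates 1 was -1.07. The call of Pou3f1 was lost without day 2 replicate 2 or 3 or day 4 replicate 1 or 2 or 3 (adjusted p from 0.0135 to 0.132 over the 6 such fits). Foxd3 lost its call without day 4 replicate 3 (adjusted p from 0.00519 to 0.0535 over the 6 such fits), and Nodal without day 2 replicate 1 or day 4 replicate 2 or 3 (adjusted p from 0.00984 to 0.138 over the 6 such fits). Otx2, a homeobox gene of the anterior epiblast and later of the forebrain, had 7.91, 20.3 and 25.1 CPM on day 2 and 0.828, 10.7 and 7.42 CPM on day 4, which overlapped (-1.49 ± 0.65, adjusted p = 0.176), and fell by the test without both replicates 1 (-1.33, adjusted p = 0.000821). Of the naive-state genes, Zfp42 reached at most 7 counts in any of the 6 libraries and was not tested. Among the 9 that were, Nr5a2 (-1.71 ± 0.23, adjusted p = 0.00107) and Klf5 (-1.78 ± 0.36, adjusted p = 0.00986) fell, and in all 1 rose and 4 fell without both replicates 1, and 0 and 1 with the 6 NoDox libraries alone. Nr0b1 rose by 1.5 on the log2 scale, from 0.318, 0.237 and 0.186 to 0.828, 0.529 and 0.769 CPM, levels below 1 CPM throughout. Esrrb, Klf4 and Tfcp2l1 were detected in every library and did not pass. Their mean levels were 3.70, 5.07 and 6.81 CPM on day 2 and 3.29, 3.76 and 5.13 CPM on day 4. Their changes were -0.17 ± 0.17, -0.43 ± 0.26 and -0.41 ± 0.51 (adjusted p = 0.586, 0.344 and 0.674).

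Genes of several components of the Nodal pathway fell. Nodal signals through activin receptors with Cripto as co-receptor, and Foxh1 is the transcription factor that brings activated Smads to its targets. Of 11 members tested, 5 fell and 1 rose, whereas 1 rose and 7 fell without both replicates 1, and 0 and 3 with the 6 NoDox libraries alone. The ligand gene Nodal had 52, 16.3 and 23.6 CPM on day 2 and 16, 12.9 and 8.19 CPM on day 4 (-1.31 ± 0.36, adjusted p = 0.038). The related ligand gene Gdf3 had 39.9, 49.1 and 54.1 CPM on day 2 and 11.2, 17.3 and 14.2 CPM on day 4 (-1.74 ± 0.20, adjusted p = 0.000415). Neither overlapped between the days, and replicate 1 of day 2 held the highest Nodal value. Foxh1 had 83.3, 73.8 and 86.2 CPM on day 2 and 30.4, 29.7 and 26.2 CPM on day 4. Its day 4 libraries lay close together below those of day 2, with a change of -1.49 ± 0.11 (edgeR adjusted p = 5.45e-05), and it passed with only the 6 NoDox libraries too (adjusted p = 0.0218). Fst, which encodes the activin antagonist follistatin, also fell, from 376, 154 and 168 to 50.2, 104 and 98.5 CPM (-1.46 ± 0.33, adjusted p = 0.0153, and -0.67 without both replicates 1). The receptor gene Acvr2a rose, from 34.1, 54 and 48.4 to 58.7, 78.3 and 75 CPM (0.64 ± 0.16, adjusted p = 0.0268), a call that was lost without day 2 replicate 3 or day 4 replicate 2 or 3 (adjusted p from 0.0078 to 0.0967 over the 6 such fits). The feedback inhibitor genes Lefty1 and Lefty2 did not pass. Lefty1 had 61.6, 36.6 and 52 CPM on day 2 and 167, 48.8 and 37 CPM on day 4 (0.75 ± 0.45, adjusted p = 0.334). Lefty2 had 137, 151 and 233 CPM on day 2 and 318, 81.9 and 47.1 CPM on day 4 (-0.22 ± 0.51, adjusted p = 0.846). For both, replicate 1 of day 4 was the highest of the 6 libraries, and without both replicates 1 the changes were -0.05 and -1.58, the latter past the threshold (adjusted p = 0.000107). FGF ligands followed in part, with falls of Fgf4 (-2.13 ± 0.53, adjusted p = 0.0249) and Fgf8 (-1.75 ± 0.33, adjusted p = 0.00642, and -1.15 without both replicates 1) and a rise of Fgf15, with overlap (0.93 ± 0.26, adjusted p = 0.0418). In that list 3 of 13 members fell and 1 rose, whereas 1 rose and 7 fell without both replicates 1, and 0 and 0 with the 6 NoDox libraries alone. The call of Fgf15 was lost without day 2 replicate 1 or 2 or 3 or day 4 replicate 2 or 3 (adjusted p from 0.00121 to 0.164 over the 6 such fits) and with the replicate block (adjusted p = 0.0638). Fgf4 lost its call without day 2 replicate 1 or day 4 replicate 2 or 3 (adjusted p from 0.0152 to 0.0855 over the 6 such fits).

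Several primitive streak genes stood highest in replicate 1 of day 2. Of 13 tested, 3 fell and none rose, whereas 2 rose and 5 fell without both replicates 1, and 0 and 1 with the 6 NoDox libraries alone. T, which encodes Brachyury and marks the streak and nascent mesoderm, had 1261, 100.1 and 142 CPM on day 2 and 88.8, 116 and 76.2 CPM on day 4. Replicate 1 of day 2 was far above every other library, and replicates 2 and 3 of day 2 overlapped with day 4. The change of -2.42 ± 0.76 did not pass (adjusted p = 0.0652) and was -0.33 without both replicates 1. Eomes, a T-box factor of the streak and early endoderm, had 88.7, 13.2 and 23.9 CPM on day 2 and 4.97, 8.13 and 4.5 CPM on day 4 and fell (-2.84 ± 0.56, adjusted p = 0.00819), by -1.56 without both replicates 1. Wnt8a, a streak ligand gene, had 159, 111 and 137 CPM on day 2 and 52.1, 57.9 and 57.4 CPM on day 4, with all day 4 libraries below day 2 and a narrow spread (-1.28 ± 0.14, adjusted p = 0.00032). The paraxial mesoderm factor gene Tbx6 (-1.48 ± 0.76, adjusted p = 0.256), the early mesoderm gene Mesp1 (-0.88 ± 0.62, adjusted p = 0.43), the posterior gene Cdx2 (-0.84 ± 0.79, adjusted p = 0.56) and the endoderm gene Sox17 (0.83 ± 1.01, adjusted p = 0.665) did not pass. Cdx2 had 241, 28.3 and 37.8 CPM on day 2 and 127, 24.8 and 19.7 CPM on day 4, so that both replicates 1 were above all others. Left without them, Cdx2 was lower on day 4 (-0.57, adjusted p = 0.0109) and Sox17 higher (2.99, adjusted p = 0.0272). Msgn1 of the presomitic mesoderm reached 657 counts in its highest library, and Mesp2 23. Neither passed the filter on low counts, which asks for counts in at least 3 libraries, and they were not tested.

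Of 12 epithelial genes tested, 6 fell and none had a change above 0, whereas 0 rose and 7 fell without both replicates 1, and 0 and 1 with the 6 NoDox libraries alone. Epcam, an adhesion molecule of the epiblast and other epithelia, had 71.2, 46.8 and 64.5 CPM on day 2 and 20.7, 15.3 and 11.7 CPM on day 4 (-1.93 ± 0.21, adjusted p = 0.000396), with no overlap. Cdh1, which encodes E-cadherin, had 131, 64.5 and 69.6 CPM on day 2 and 36.8, 34.1 and 29.7 CPM on day 4 (-1.40 ± 0.24, adjusted p = 0.00422). The tight junction gene Cldn7 fell by a change of -1.71, and the keratin genes Krt8, Krt18 and Krt19 by -1.42, -1.21 and -1.55. The keratins were highest in replicate 1 of day 2, at 232, 179 and 39.3 CPM, and without both replicates 1 their changes were -0.59, -0.58 and -0.66. Krt8 lost its call without day 2 replicate 1 or day 4 replicate 1 or 3 (adjusted p from 0.0152 to 0.101 over the 6 such fits). Krt18 lost it without day 4 replicate 3 (adjusted p from 0.00961 to 0.0625 over the 6 such fits). Krt19 lost it without day 2 replicate 1 or day 4 replicate 3 (adjusted p from 0.0161 to 0.0962 over the 6 such fits). Of 11 mesenchymal genes, 2 rose, whereas 6 rose and 1 fell without both replicates 1, and 0 and 0 with the 6 NoDox libraries alone. Zeb1, a repressor of E-cadherin, had 35.4, 52.5 and 48.7 CPM on day 2 and 66.5, 72.7 and 78.5 CPM on day 4 (0.67 ± 0.14, adjusted p = 0.0117), a call lost without day 4 replicate 3 (adjusted p from 0.00801 to 0.0524 over the 6 such fits). The other gene was Twist1, at 111, 15.3 and 13.9 CPM on day 4 against 9.99, 7.39 and 7.36 on day 2 (2.50 ± 0.66, adjusted p = 0.0336), for which replicate 1 of day 4 was far above its partners and the change without both replicates 1 was 0.98. Its call was lost without day 2 replicate 1 or 2 or 3 (adjusted p from 0.0157 to 0.099 over the 6 such fits). With the replicate block 4 of these 11 genes rose. In the basement membrane list 4 of 11 fell, 1 of them with the block, and 2 rose and 6 fell without both replicates 1, and 0 and 0 with the 6 NoDox libraries alone. Lama1, the laminin chain of embryonic basement membranes, rose from 19.5, 10.1 and 7.88 to 54.9, 36 and 46.8 CPM (1.87 ± 0.29, adjusted p = 0.00244).

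Hedgehog pathway genes rose, 7 of 11 tested with none falling, and all 11 had a change above 0 (median 1.18, against 0.0151 over all genes). In this list 8 rose and 0 fell without both replicates 1, and 2 and 0 with the 6 NoDox libraries alone. In this pathway a secreted ligand binds Patched, which frees Smoothened to activate the Gli factors, and Ptch1, Gli1 and Hhip are themselves induced targets. The ligand gene Shh had 3.71, 1.42 and 0.781 CPM on day 2 and 10.4, 19.8 and 19.4 CPM on day 4. Every day 4 library was above every day 2 library, replicate 1 least so, and the change was 3.06 ± 0.50 (edgeR adjusted p = 0.0031) and 4.16 without both replicates 1. The receptor gene Ptch1 had 89.1, 58.6 and 53.3 CPM on day 2 and 219, 258 and 323 CPM on day 4 (1.99 ± 0.20, adjusted p = 0.000202). The signal transducer gene Smo had 82.5, 100.5 and 97.9 CPM on day 2 and 128, 117 and 123 CPM on day 4 (0.39 ± 0.10, adjusted p = 0.0365). The rise of Smo was small and its call was lost without day 2 replicate 1 or 3 or day 4 replicate 1 or 2 or 3 (adjusted p from 0.045 to 0.101 over the 6 such fits) and without both replicates 1 (adjusted p = 0.0632). Gli1, the factor gene used as a readout of the pathway, had 17.5, 6.36 and 5.99 CPM on day 2 and 39.6, 41.8 and 55.6 CPM on day 4 (2.19 ± 0.38, adjusted p = 0.00394, and 2.98 without both replicates 1). Gli2, the main activator among the Gli factors, had 35, 50.0 and 45.4 CPM on day 2 and 74.2, 64 and 70.7 CPM on day 4 (0.68 ± 0.14, adjusted p = 0.0113). Hhip, which encodes a membrane protein that binds and sequesters the ligand, had 2.12, 1.74 and 1.82 CPM on day 2 and 9.62, 18.1 and 20.2 CPM on day 4. It had the largest change and the lowest adjusted p of the pathway (3.07 ± 0.25, adjusted p = 6.18e-05), and with only the 6 NoDox libraries it passed too (0.0251), as did Ptch1 (0.0303). Gas1, a ligand co-receptor gene, had 39, 86.1 and 85.2 CPM on day 2 and 157, 173 and 169.9 CPM on day 4 (1.25 ± 0.25, adjusted p = 0.00855). Members that did not pass included Gli3 (0.24 ± 0.14, adjusted p = 0.333), Boc (1.11 ± 0.40, adjusted p = 0.105) and Cdon (0.16 ± 0.16, adjusted p = 0.603). Boc passed without both replicates 1 (0.87, adjusted p = 4.16e-05). The genes of the other ligands, Ihh and Dhh, reached at most 5 and 7 counts and were not tested. Exons of Shh overlap an opposite-strand gene over 15.7% of their bases. Foxa2, a floor plate and notochord factor gene that responds to Shh, had 17.4, 5.02 and 4.83 CPM on day 2 and 12.6, 28.1 and 21.6 CPM on day 4, higher in replicates 2 and 3 of day 4 (1.19 ± 0.45, adjusted p = 0.119, and 2.33 without both replicates 1, adjusted p = 7.87e-07).

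Of 16 Notch pathway genes tested, 6 rose and none fell, whereas 9 rose and 1 fell without both replicates 1, and 0 and 0 with the 6 NoDox libraries alone. Notch receptors are cut when bound by Delta or Jagged ligands, and the freed fragment joins the DNA-binding protein RBPJ to switch on Hes and Hey repressors. The ligand gene Dll1 had 56, 38.5 and 33.1 CPM on day 2 and 62.9, 91.8 and 100.4 CPM on day 4 (1.00 ± 0.21, adjusted p = 0.0115). The ligand gene Dll4 had 0.636, 1.11 and 1.86 CPM on day 2 and 2.48, 7.03 and 7.42 CPM on day 4 (2.23 ± 0.47, adjusted p = 0.0114). Neither overlapped, and for both, replicate 1 of day 4 was the lowest library of its day. The target gene Hes5, a repressor that holds neural progenitors undifferentiated, had 0.424, 3.95 and 2.01 CPM on day 2 and 3.51, 41.6 and 38.9 CPM on day 4. Its replicates 2 and 3 of day 4 were far above every day 2 library, whereas replicate 1 of day 4 lay within the range of day 2 (3.73 ± 0.82, adjusted p = 0.0138). Hey2, another target, had 0.883, 0.949 and 0.558 CPM on day 2 and 8.6, 3.09 and 3.61 CPM on day 4, with the highest value in replicate 1 of day 4 (2.67 ± 0.41, adjusted p = 0.00216). Hey1 had 7.31, 13.5 and 10.7 CPM on day 2 and 29.4, 20.9 and 18.6 CPM on day 4 (1.13 ± 0.22, adjusted p = 0.00777). Heyl rose by 1.45, a call lost without day 2 replicate 1 or 3 or day 4 replicate 1 or 3 (adjusted p from 0.0297 to 0.141 over the 6 such fits), without both replicates 1 (adjusted p = 0.111) and with the replicate block (0.0713). The call of Dll1 was lost without day 4 replicate 3 (adjusted p from 0.00215 to 0.0512 over the 6 such fits) and that of Hes5 without day 2 replicate 3 (adjusted p from 0.000365 to 0.0521 over the 6 such fits). Hes1 (-0.09 ± 0.14, adjusted p = 0.733) and Dll3 (0.08 ± 0.33, adjusted p = 0.92) did not pass, and Dll3 did without both replicates 1 (0.84, adjusted p = 0.0012). Exons of Hes5 overlap an opposite-strand gene over 31.8% of their bases.

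**Figure D4:**
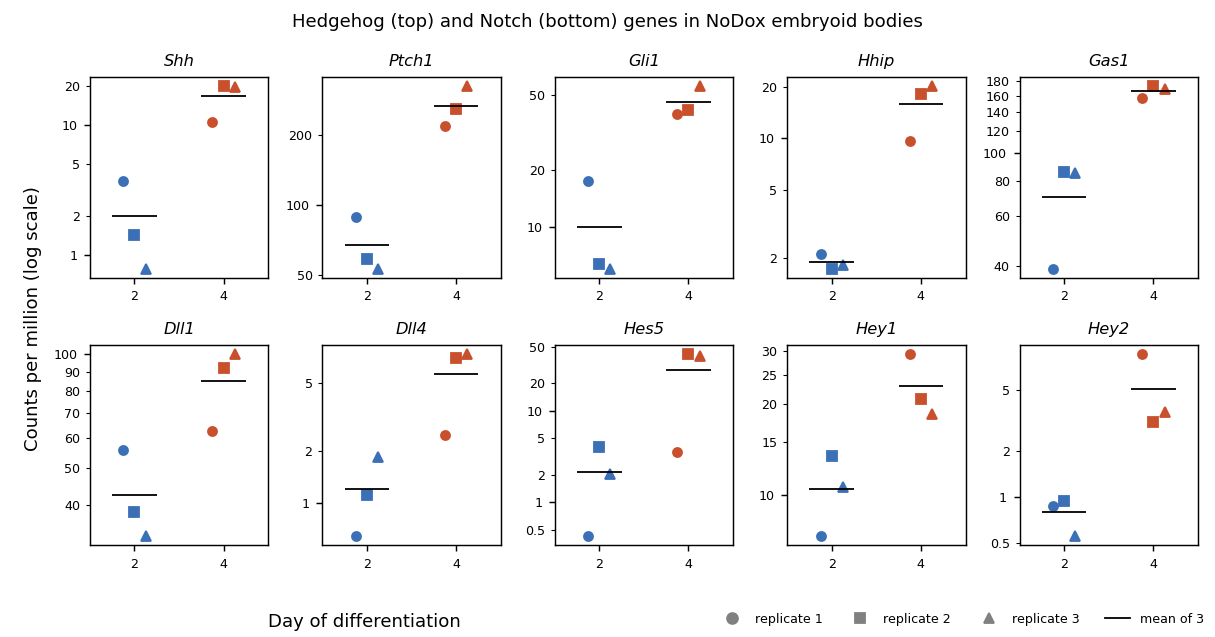
CPM (y axes, log scale) of 5 Hedgehog genes (top) and 5 Notch genes (bottom) on days 2 and 4 (x axes). Points are libraries, with shapes for replicates, and bars the mean of 3. All day 4 points lie above all day 2 points except in Hes5, where replicate 1 of day 4 lies within day 2.

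The promoters of Hes5 and Hey2, 2 of the Notch targets that rose, are shown because each holds the core letters bound by RBPJ, TTCCCAC, 2 times in the RefSeq window from 250 bases before to 50 after the gene's start (build GRCm38.p6, 5′ to 3′ along the gene). Capitals mark the motif or its reverse complement. Of all 32851 such windows, 6.38% held it at least once, searched on both strands. It was in 4 of the 13 Notch list members with a window, and in 2 of the 4 that rose. A member counted if any of its windows held the motif, so the list counts are per gene and the share above is per window. A match describes the letters and does not show binding.
Hes5 (chr4:154960673-154960972, plus strand): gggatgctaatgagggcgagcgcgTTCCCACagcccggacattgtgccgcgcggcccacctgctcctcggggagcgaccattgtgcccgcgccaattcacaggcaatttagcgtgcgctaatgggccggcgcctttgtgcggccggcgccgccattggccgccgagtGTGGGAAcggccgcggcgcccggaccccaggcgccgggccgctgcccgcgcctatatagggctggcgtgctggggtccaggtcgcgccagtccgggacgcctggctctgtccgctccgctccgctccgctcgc
Hey2 (chr10:30842734-30843033, minus strand): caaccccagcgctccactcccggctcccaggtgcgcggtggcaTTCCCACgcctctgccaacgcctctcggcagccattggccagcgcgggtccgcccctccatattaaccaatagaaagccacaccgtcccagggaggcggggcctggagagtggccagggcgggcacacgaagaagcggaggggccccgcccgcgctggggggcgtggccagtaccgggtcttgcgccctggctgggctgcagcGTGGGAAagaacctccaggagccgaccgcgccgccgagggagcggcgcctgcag

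Among neural genes the count of calls turned on the replicates 1. Of 17 neural plate genes tested 3 rose and 1 fell, whereas 9 rose and 2 fell without both replicates 1, and 0 and 0 with the 6 NoDox libraries alone. Sox1, the first marker of the neural plate, had 40.9, 292 and 276 CPM on day 2 and 81.6, 308 and 348 CPM on day 4, so that replicates 2 and 3 were already high on day 2 (0.28 ± 0.60, adjusted p = 0.832). Pax6, a homeobox gene of neural progenitors, had 2.47, 30.6 and 25.2 CPM on day 2 and 12.3, 91.8 and 101 CPM on day 4. Its replicates 1 were the lowest of each day and the days overlapped (1.82 ± 0.77, adjusted p = 0.166), while the change without them was 1.79 (adjusted p = 9.77e-07). Olig2, which marks motor neuron progenitors and is induced by Shh, had 0.106, 0.198 and 0.595 CPM on day 2 and 10.9, 2.48 and 4.19 CPM on day 4, with the highest value in replicate 1 of day 4 (4.27 ± 0.68, adjusted p = 0.00259, and 3.05 without both replicates 1). Dbx1, of progenitors in the middle of the neural tube, had 1.84, 8.89 and 6.28 CPM on day 2 and 12, 18.9 and 21.5 CPM on day 4 (1.63 ± 0.42, adjusted p = 0.0306), a call lost without day 2 replicate 3 or day 4 replicate 2 or 3 (adjusted p from 0.012 to 0.103 over the 6 such fits). En1, of the midbrain and hindbrain boundary, had 48.1, 84.2 and 91.8 CPM on day 2 and 33.6, 52.7 and 37.4 CPM on day 4. It fell by the test (-0.86 ± 0.22, adjusted p = 0.0318), with overlap, and not without day 2 replicate 2 or 3 or day 4 replicate 1 or 3 (adjusted p from 0.00183 to 0.117 over the 6 such fits). Pou3f3, a POU factor gene of neural progenitors, was among the largest rises of all, with 5.15, 7.39 and 6.21 CPM on day 2 and 32.5, 139.5 and 148 CPM on day 4 (4.10 ± 0.48, adjusted p = 0.00052). Pantr1, the non-coding gene next to it, had 0.883, 1.98 and 0.781 CPM on day 2 and 6.39, 30.3 and 27.2 CPM on day 4 (4.14 ± 0.59, adjusted p = 0.00146). Of the 14 neuronal genes tested, 2 rose and 1 fell. The proneural factor gene Neurog2 had 0.706, 2.37 and 1.67 CPM on day 2 and 6.67, 4.55 and 4.84 CPM on day 4 (1.76 ± 0.34, adjusted p = 0.00741). Stmn2, a microtubule regulator of neurons, fell from 100.2, 123 and 128 to 14.6, 58.2 and 49.1 CPM (-1.53 ± 0.36, adjusted p = 0.0189), a call lost without day 2 replicate 3 (adjusted p from 0.000358 to 0.0537 over the 6 such fits). Of the neuronal genes 10 rose and 2 fell without both replicates 1, and 0 and 0 with the 6 NoDox libraries alone.

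Somite genes rose, 5 of 13 tested, and all 13 had a change above 0. In this list 10 rose and 1 fell without both replicates 1, and 1 and 0 with the 6 NoDox libraries alone. Uncx, a homeobox gene of the posterior part of each somite, had 0.318, 0.711 and 0.669 CPM on day 2 and 7.85, 6.34 and 7.45 CPM on day 4. Its 3 day 4 libraries were alike, the change was 3.67 ± 0.28 (edgeR adjusted p = 5.45e-05), and it passed with the 6 libraries alone (adjusted p = 0.0221). The other 4 were highest in replicate 1 of day 4. The forkhead gene Foxc2 had 0.777, 0.949 and 1.04 CPM on day 2 and 27.4, 5.9 and 7.15 CPM on day 4 (3.86 ± 0.54, adjusted p = 0.0013, and 2.71 without both replicates 1). Meox1, a homeobox gene of the early somite, had 21.7, 20.7 and 21.1 CPM on day 2 and 235, 36.2 and 37.6 CPM on day 4 (2.28 ± 0.58, adjusted p = 0.0292). Meox2, its relative, had 0.353, 0.316 and 0.112 CPM on day 2 and 11.8, 0.447 and 0.461 CPM on day 4 (3.99 ± 1.13, adjusted p = 0.0439). Pax9, of the sclerotome, had 0, 0.198 and 0.0744 CPM on day 2 and 2.76, 0.488 and 0.576 CPM on day 4 (3.79 ± 0.86, adjusted p = 0.0166). Without both replicates 1 the change of Meox1 was 0.82, that of Pax9 1.95 and that of Meox2 1.09, which then did not pass (adjusted p = 0.192). Meox1 and Meox2 also did not pass with the replicate block (adjusted p = 0.0561 and 0.0877), and 3 somite genes did. Meox1 lost its call without day 2 replicate 1 or 2 or 3 (adjusted p from 0.00361 to 0.0831 over the 6 such fits). Meox2 lost it without day 2 replicate 1 or 2 or 3 or day 4 replicate 1 (adjusted p from 0.0194 to 0.277 over the 6 such fits). Pax9 lost it without day 2 replicate 3 (adjusted p from 0.0148 to 0.0604 over the 6 such fits). Of 12 blood and endothelial genes, 2 rose, whereas 3 rose and 0 fell without both replicates 1, and 1 and 0 with the 6 NoDox libraries alone. The VEGF receptor gene Kdr had 3.32, 1.74 and 1.56 CPM on day 2 and 30.1, 4.68 and 6.19 CPM on day 4 (2.62 ± 0.62, adjusted p = 0.0201), a call lost without day 2 replicate 2 or 3 (adjusted p from 0.0095 to 0.0736 over the 6 such fits). The haemangioblast factor gene Tal1 had 0.177, 0.237 and 0.149 CPM on day 2 and 5.25, 1.79 and 1.61 CPM on day 4 (3.91 ± 0.56, adjusted p = 0.00155). Their changes without both replicates 1 were 1.72 and 3.12. Smarcd3, which encodes a cardiac subunit of chromatin remodellers, was the 1 of 11 lateral plate and cardiac genes that rose, with 5.05, 4.66 and 4.91 CPM on day 2 and 13.3, 12 and 12.6 CPM on day 4 (1.37 ± 0.16, adjusted p = 0.000417), and 48.2% of its exon bases overlap an opposite-strand gene. Among 11 neural crest genes 3 rose and 2 fell, whereas 4 rose and 5 fell without both replicates 1, and 0 and 0 with the 6 NoDox libraries alone. Sox9 had 7.13, 18.7 and 17.8 CPM on day 2 and 36.7, 42.9 and 43.4 CPM on day 4 (1.49 ± 0.27, adjusted p = 0.00531). Tfap2b had 4.2, 3.56 and 2.75 CPM on day 2 and 8.12, 27.3 and 21.2 CPM on day 4 (2.43 ± 0.37, adjusted p = 0.00201). The receptor gene Erbb3 fell (-1.36 ± 0.40, adjusted p = 0.0495), a call lost without day 2 replicate 1 or 3 or day 4 replicate 2 or 3 (adjusted p from 0.0042 to 0.171 over the 6 such fits).

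Called Hox genes rose, and most of them rose most in the replicates 1. Of 12 genes of paralog groups 1 to 4 tested, 5 rose, of 15 of groups 5 to 9 5 rose, and of 7 of groups 10 to 13 1 did, with none falling. The median changes were 1.04, 2.58 and 0.93 on the log2 scale, and 0.87, 0.67 and 0.36 without both replicates 1. In groups 1 to 4 8 rose and 1 fell without both replicates 1, and 0 and 0 with the 6 NoDox libraries alone. In groups 5 to 9 4 rose and 0 fell without both replicates 1, and 0 and 0 with the 6 NoDox libraries alone. Hoxb3 had 5.44, 11 and 8.37 CPM on day 2 and 26.1, 22.2 and 21.9 CPM on day 4, so that its 3 day 4 libraries were alike (1.5 ± 0.23, adjusted p = 0.00216), and 52.9% of its exon bases overlap an opposite-strand gene. Hoxb4 had 10.1, 4.11 and 4.42 CPM on day 2 and 54, 11.6 and 15.4 CPM on day 4 (2.12 ± 0.52, adjusted p = 0.0252). Hoxc4 and all called genes of groups 5 to 10 were far higher in replicate 1 of day 4 than in its partners. Hoxc6 had 5.65, 6.05 and 7.62 CPM on day 2 and 105, 11.3 and 12.4 CPM on day 4 (2.74 ± 0.72, adjusted p = 0.0327). Hoxc9 had 1.94, 1.58 and 2.38 CPM on day 2 and 58.9, 5.2 and 4.53 CPM on day 4 (3.53 ± 0.86, adjusted p = 0.0237). Hoxc10 had 0.565, 0.119 and 0.335 CPM on day 2 and 55.5, 0.569 and 1.42 CPM on day 4 (5.78 ± 1.47, adjusted p = 0.0282). With both replicates 1 left out these changes were 0.80, 1.29 and 2.10. The others that rose were Hoxa4 (0.71), Hoxc4 (2.50), Hoxd3 (2.51), Hoxb9 (1.58), Hoxc5 (2.96) and Hoxc8 (2.48). The changes of Hoxc4, Hoxd3, Hoxb9, Hoxc5 and Hoxc8 were 1.16, 1.44, 0.76, 1.58 and 0.66 without both replicates 1, and Hoxc8 then did not pass (adjusted p = 0.0864). With the replicate block Hoxc6, Hoxc8 and Hoxc10 did not pass (adjusted p = 0.0624, 0.0689 and 0.0527), which left 3 calls in groups 5 to 9. None of the 5 calls of groups 5 to 9, nor that of Hoxc10, held in all 6 fits that left out 1 library, where the number of calls in groups 5 to 9 ran from 0 to 11. Hoxb9 lost its call without day 2 replicate 1 or 2 or 3 (adjusted p from 0.0159 to 0.104 over the 6 such fits). Hoxc5 lost it without day 2 replicate 2 or 3 or day 4 replicate 1 (adjusted p from 0.0136 to 0.0956 over the 6 such fits). Hoxc6 lost it without day 2 replicate 1 or 2 or 3 (adjusted p from 0.0143 to 0.0834 over the 6 such fits). Hoxc8 lost it without day 2 replicate 1 or 2 or 3 or day 4 replicate 1 (adjusted p from 0.0182 to 0.113 over the 6 such fits). Hoxc9 lost it without day 2 replicate 1 or 2 or 3 (adjusted p from 0.0122 to 0.0689 over the 6 such fits). Hoxc10 lost it without day 2 replicate 1 or 2 or 3 or day 4 replicate 1 (adjusted p from 0.00969 to 0.0886 over the 6 such fits). In groups 1 to 4 Hoxa4 lost its call without day 2 replicate 3 or day 4 replicate 3 (adjusted p from 0.0313 to 0.0999 over the 6 such fits). Hoxb4 lost it without day 2 replicate 2 or 3 (adjusted p from 0.0128 to 0.0883 over the 6 such fits). Hoxd3 lost it without day 2 replicate 2 or 3 (adjusted p from 0.0101 to 0.0563 over the 6 such fits). Hoxb1, of the most anterior group, had 79.1, 73.4 and 75.1 CPM on day 2 and 67.1, 47.3 and 56.6 CPM on day 4 and was lower on day 4 in every library without passing (-0.41 ± 0.13, adjusted p = 0.0639), and passed with the replicate block (adjusted p = 0.0248) and without both replicates 1 (0.00493).

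**Figure D5:**
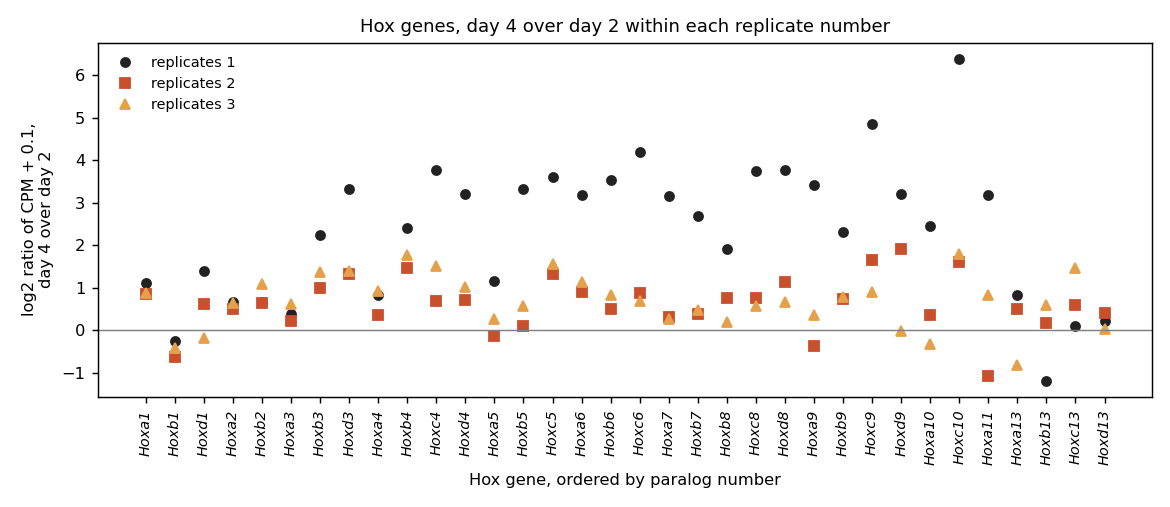
Log2 ratio of day 4 over day 2 within each replicate number (y axis, from CPM + 0.1) for the 34 Hox genes tested, ordered by paralog group (x axis). From Hoxb3 to Hoxd9 the ratio of replicates 1 is above those of replicates 2 and 3 in most genes, with Hoxc10 the highest.

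Of 15 genes of retinoic acid, a signal that induces Hox and neural genes, 1 rose and 1 fell, shares near those over all genes. In this list 6 rose and 4 fell without both replicates 1, and 0 and 0 with the 6 NoDox libraries alone. The receptor gene Rarb, itself a target, had 0.141, 1.03 and 0.818 CPM on day 2 and 7.81, 1.83 and 3.04 CPM on day 4 (2.68 ± 0.66, adjusted p = 0.0249, and 1.40 without both replicates 1). Its call was lost without day 2 replicate 3 (adjusted p from 0.0192 to 0.0598 over the 6 such fits) and with the replicate block (adjusted p = 0.0541), and 38.4% of its exon bases overlap an opposite-strand gene. Cyp26c1, which encodes a retinoic acid degrading enzyme, had 1.09, 8.81 and 8.4 CPM on day 2 and 0.513, 0.813 and 0.692 CPM on day 4. All day 4 libraries were below 1 CPM, and replicate 1 of day 2 was low as well (-3.17 ± 0.65, adjusted p = 0.0101). Its relative Cyp26b1 had 5.12, 105 and 77 CPM on day 2 and 45.6, 437 and 457 CPM on day 4, higher on day 4 within each replicate number, but with overlap between the days (2.33 ± 0.88, adjusted p = 0.12, and 2.30 without both replicates 1, adjusted p = 8.00e-08). Among Wnt targets the cell cycle gene Ccnd1 had 179, 160.2 and 156 CPM on day 2 and 285, 291 and 308 CPM on day 4 (0.84 ± 0.08, adjusted p = 0.000217). The Wnt inhibitor gene Dkk1 had 5.61, 3.32 and 5.02 CPM on day 2 and 9.7, 8.13 and 7.53 CPM on day 4 (0.86 ± 0.18, adjusted p = 0.00967). In this list 2 of 12 rose with none falling, whereas 4 rose and 3 fell without both replicates 1, and 1 and 0 with the 6 NoDox libraries alone. The Wnt ligand gene Wnt6 was among the largest falls, from 28.8, 2.45 and 4.39 to 1.14, 1.38 and 0.653 CPM (-3.49 ± 0.79, adjusted p = 0.0164), mostly through replicate 1 of day 2, with -1.76 without both replicates 1, and its call was lost without day 4 replicate 3 (adjusted p from 0.00452 to 0.0734 over the 6 such fits). Of 12 BMP pathway genes 2 fell, whereas 2 rose and 4 fell without both replicates 1, and 0 and 0 with the 6 NoDox libraries alone. The ligand gene Bmp2 had 8.61, 10.4 and 9.67 CPM on day 2 and 4.46, 3.86 and 3.15 CPM on day 4 (-1.32 ± 0.16, adjusted p = 0.000653). The decoy receptor gene Bambi had 20.7, 20.1 and 24.1 CPM on day 2 and 18, 9.96 and 8.68 CPM on day 4 (-0.82 ± 0.23, adjusted p = 0.0441), a call lost without day 2 replicate 1 or 2 or 3 or day 4 replicate 2 or 3 (adjusted p from 0.000522 to 0.152 over the 6 such fits).

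Interferon-inducible genes and actin genes fell in part. Both lists were put together after values of these data had been seen, so their counts are a description only. Of 28 interferon-inducible genes tested, 15 fell and none rose, whereas 0 rose and 18 fell without both replicates 1, and 0 and 4 with the 6 NoDox libraries alone. Gbp2, which encodes a guanylate-binding GTPase of host defence, had 54, 16.8 and 25.6 CPM on day 2 and 4.18, 2.4 and 1.65 CPM on day 4 (-3.55 ± 0.45, adjusted p = 0.000747). Its neighbour Gbp2b had 38.5, 14.5 and 22.2 CPM on day 2 and 2.41, 1.99 and 1.61 CPM on day 4 (-3.64 ± 0.47, adjusted p = 0.000799). The 2 are close copies, and how reads shared between them were counted was not tested. Irf1, a transcription factor gene of the interferon response, had 138, 42.3 and 53.4 CPM on day 2 and 20.5, 11.3 and 9.07 CPM on day 4 (-2.52 ± 0.42, adjusted p = 0.00331). The immunoproteasome gene Psmb8 fell from 18.4, 7.98 and 12.9 to 3, 1.79 and 1.19 CPM (-2.71 ± 0.37, adjusted p = 0.0011), the antigen-loading gene Tapbp by -1.65 and Isg15 by -1.91. Ifitm3, a membrane protein gene that is also used to mark early germ cells, had 217, 241 and 265 CPM on day 2 and 92.8, 113 and 95 CPM on day 4 (-1.26 ± 0.11, adjusted p = 0.00013). For each of these, all day 4 libraries lay below all of day 2.

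Promoters of 3 of them are shown because they hold the letters of an interferon-stimulated response element, GAAA repeated with any 2 bases between, in the same RefSeq windows (GRCm38.p6, 5′ to 3′ along the gene). Capitals mark the motif or its reverse complement. It was in 3.44% of all windows, in 14 of the 25 listed genes with a window and in 7 of the 13 of them that fell. As for the Notch list, a gene counted if any of its windows held the motif. The match again describes letters only.
Gbp2 (chr3:142620413-142620712, plus strand): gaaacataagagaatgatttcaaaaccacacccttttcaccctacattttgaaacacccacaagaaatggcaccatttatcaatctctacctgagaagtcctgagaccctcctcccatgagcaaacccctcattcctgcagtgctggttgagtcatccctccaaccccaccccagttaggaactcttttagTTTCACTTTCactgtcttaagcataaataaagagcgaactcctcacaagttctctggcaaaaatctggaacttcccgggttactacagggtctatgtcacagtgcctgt
Gbp2b (chr3:142594597-142594896, plus strand): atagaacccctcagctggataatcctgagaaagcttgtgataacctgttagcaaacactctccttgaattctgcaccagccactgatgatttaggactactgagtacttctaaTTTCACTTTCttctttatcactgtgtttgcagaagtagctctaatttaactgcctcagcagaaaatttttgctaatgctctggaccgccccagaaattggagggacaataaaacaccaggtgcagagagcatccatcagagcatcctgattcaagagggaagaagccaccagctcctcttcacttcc
Ifitm3 (chr7:141010695-141010994, minus strand): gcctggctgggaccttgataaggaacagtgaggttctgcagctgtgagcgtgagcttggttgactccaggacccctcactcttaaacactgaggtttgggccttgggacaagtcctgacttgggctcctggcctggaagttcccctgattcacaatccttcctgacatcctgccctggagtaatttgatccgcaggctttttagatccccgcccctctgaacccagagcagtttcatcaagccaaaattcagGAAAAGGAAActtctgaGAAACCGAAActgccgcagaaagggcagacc

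Of 32 actin and actin-associated genes tested, 20 fell and none rose, whereas 0 rose and 29 fell without both replicates 1, and 0 and 10 with the 6 NoDox libraries alone. Cnn1, which encodes the smooth muscle protein calponin, had 48.3, 74.5 and 79.3 CPM on day 2 and 8.64, 6.51 and 4.5 CPM on day 4 (-3.36 ± 0.28, adjusted p = 6.18e-05). The skeletal and cardiac actin genes Acta1 and Actc1 both fell. Acta1 had 18.9, 38.1 and 36.8 CPM on day 2 and 5.8, 3.42 and 1.73 CPM on day 4 (-3.10 ± 0.40, adjusted p = 0.000799). Actc1 had 62.3, 67.3 and 65.6 CPM on day 2 and 25.5, 8.54 and 6.96 CPM on day 4 (-2.25 ± 0.37, adjusted p = 0.00335). Their changes were -3.87 and -3.10 without both replicates 1. Replicate 1 of day 4 was the highest of its day for Cnn1, Acta1 and Actc1. The myosin light chain gene Myl9 had 50.3, 113 and 111 CPM on day 2 and 23.7, 14.5 and 14.4 CPM on day 4 (-2.38 ± 0.29, adjusted p = 0.000583). Actb, the cytoplasmic actin gene often used as a reference, had 2159, 2147 and 2313 CPM on day 2 and 1633, 1328 and 1255 CPM on day 4 (-0.65 ± 0.12, adjusted p = 0.00482). Ccn1, a target of serum response factor and Yap, had 62.6, 59.6 and 58.3 CPM on day 2 and 25, 28.5 and 30.4 CPM on day 4 (-1.11 ± 0.11, adjusted p = 0.000202).

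Other genes changed alike in all 3 replicates. Robo2, an axon guidance receptor gene, had 8.16, 10.4 and 8.55 CPM on day 2 and 47.3, 45.8 and 51.3 CPM on day 4 (2.41 ± 0.15, adjusted p = 1.89e-05). Lrrc4, of a synaptic adhesion protein, had 3.81, 3.16 and 3.16 CPM on day 2 and 20.6, 18.2 and 20.4 CPM on day 4 (2.54 ± 0.15, adjusted p = 1.89e-05). Smoc1, of a secreted calcium-binding matrix protein, had 31.4, 50.6 and 41.1 CPM on day 2 and 157, 160.1 and 167 CPM on day 4 (1.98 ± 0.16, adjusted p = 6.18e-05). Hsd11b2, of the enzyme that inactivates glucocorticoids, had 8.09, 6.28 and 7.73 CPM on day 2 and 31.2, 24.8 and 30.1 CPM on day 4 (1.96 ± 0.15, adjusted p = 5.45e-05). Tgfbr1, of a receptor for TGF-beta, rose from 119, 131 and 127 to 229.5, 235 and 227 CPM (0.88 ± 0.08, adjusted p = 0.000112). Among the falls, Enpp3, of a nucleotide pyrophosphatase, had 82.2, 95.3 and 112 CPM on day 2 and 24, 23.5 and 16.9 CPM on day 4 (-2.17 ± 0.16, adjusted p = 5.45e-05). Myadm, of a membrane protein, had 239, 174 and 181 CPM on day 2 and 63, 58 and 62.9 CPM on day 4 (-1.69 ± 0.12, adjusted p = 5.37e-05). Sptb, of an erythroid spectrin, had 103, 84.9 and 95.3 CPM on day 2 and 25.7, 19.4 and 16.1 CPM on day 4 (-2.21 ± 0.22, adjusted p = 0.000202). Trap1a, an X-linked tumour rejection antigen gene, had 59.4, 30.8 and 42.9 CPM on day 2 and 6.07, 4.27 and 3 CPM on day 4 (-3.32 ± 0.31, adjusted p = 0.000184). The lymphotoxin gene Ltb had 17.5, 12.3 and 17.9 CPM on day 2 and 1.34, 2.03 and 1.38 CPM on day 4 (-3.32 ± 0.28, adjusted p = 6.57e-05). All of these also passed with only the 6 NoDox libraries, with adjusted p from 0.0181 for Robo2 to 0.0251 for Trap1a. All but Trap1a were picked by a rule that asked for a call in that fit, so passing it is no further support.

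Several lists held no call. Over all 18109 genes tested, 4494 had an unadjusted p under 0.05 in edgeR's test, and the unadjusted counts below are to be read beside that. None of 14 proliferation genes passed the edgeR test, with a median change of -0.02, none passed an adjusted p of 0.05 in DESeq2, and 0 had an unadjusted p under 0.05. Of these 0 rose and 3 fell without both replicates 1, and 0 and 0 with the 6 NoDox libraries alone. None of 14 glycolysis and hypoxia genes passed (1 in DESeq2, and 5 at an unadjusted p under 0.05), whereas 3 rose and 3 fell without both replicates 1, and 0 and 0 with the 6 NoDox libraries alone. None of 13 genes encoded in mitochondria passed (2 in DESeq2, and 6 at an unadjusted p under 0.05), although 13 had a change above 0, and replicate 2 of day 4 had the highest mitochondrial share. Without both replicates 1, 11 rose, and up to 10 did in a fit that left out 1 library. The 18 genes of the ATF4 amino acid stress response followed the split of replicates. Their summed level was 1504, 4388 and 5062 CPM on day 2 and 1674, 6667 and 6088 CPM on day 4. None passed (1 in DESeq2, and 2 at an unadjusted p under 0.05), and 12 rose without both replicates 1.

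The labelled cell type was checked against markers. Epiblast-derived cells express Pou5f1, Lin28a, Epcam, Cdh1 and Fgf5, and all 5 were detected in every library, Lin28a at 387, 361 and 393 CPM on day 2 and 339, 188 and 193 CPM on day 4. Its change of -0.66 ± 0.20 did not pass (adjusted p = 0.0506), but did without both replicates 1 (adjusted p = 1.94e-05). Visceral endoderm markers were low, with at most 4, 25, 44 and 1 counts of Afp, Ttr, Apoa1 and Hnf4a in any library. Of the trophoblast list, Elf5 and Plac1 reached at most 5 and 15 counts and were not tested. The 7 members tested include Cdx2, Eomes and Tfap2c, which the embryo's own cells also express. They summed to 508, 128 and 148 CPM on day 2 and 195, 63.2 and 49.3 CPM on day 4, and 3 fell. The 13 fibroblast feeder genes tested summed to 498, 370.2 and 357 CPM on day 2 and 619, 166 and 169 CPM on day 4. Of these, 4 fell, Col1a2 (-0.63 ± 0.12, adjusted p = 0.00764), Col6a3, Thy1 and Loxl1, whereas 0 rose and 8 fell without both replicates 1, and 0 and 0 with the 6 NoDox libraries alone. None was at 0 in every library. The list shares Acta2 and Tagln with the actin list, and the part of feeder cells in the falls of actin genes was not tested. In bulk samples fewer cells of a type and less RNA per cell cannot be told apart, which holds for every list above.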

How the data were processed

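Total RNA was made into NEBNext Ultra II libraries and read as pairs of 150 bp, and Trim Galore kept reads of 50 bp or more, per the labels' protocols. STAR, featureCounts and DESeq2 are named in the submitters' processing notes. The authors deposited unnormalized counts per gene from featureCounts 2.0.1 on GENCODE vM25 (GRCm38), counted without regard to strand, per the file headers. Of 55487 genes, 18109 passed edgeR's filterByExpr. Counts were scaled by TMM and tested with edgeR 4.0.16 (glmQLFit, glmQLFTest) in 1 fit of all 12 libraries by group (8 residual degrees of freedom), with Benjamini-Hochberg adjustment over all genes tested and a threshold of 0.05. SE is the log2 change over the root of F. Alternatives were DESeq2 1.42.0, other scalings, filters and thresholds, only the 6 NoDox libraries, and libraries left out. Deviations from the group means correlated at 0.545, 0.361 and 0.308 for equal replicate numbers 1 to 3. Replicate 2 of day 2 correlated more with replicate 3 of day 4 (0.416), and replicate 3 of day 2 with replicate 2 of day 4 (0.325). The values for equal numbers were all over 0.1, the limit planned for counting numbers as pairs. Unequal numbers 2 and 3 were over it too, so these values cannot tell whether equal numbers 2 and 3 are pairs. A fit with the number as a block was run as an alternative. The labels do not say what a number shares.

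Genes, lists and tests were chosen with earlier results of these data known. Named were a fixed panel, the called genes with the largest changes (at least 5 CPM, no overlap), the called list members of lowest adjusted p and genes called in 3 fits. Beyond this rule some further list members are named, chosen after their values were seen. Counting error limits low values, and 3 counts of a library are 0.107 to 0.119 CPM. Some list members are not reported here.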

Additional observations from a re-analysis of the deposited data

How the results depend on the processing

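The number of genes called was 1944 with DESeq2 size factors, 1899 with upper-quartile scaling, 2777 with DESeq2's own test and 1841 with the replicate block. With only the 6 NoDox libraries and the replicate block it was 1928, of which 1339 were called in the main fit too. That fit had 2 residual degrees of freedom. The number moved by more than 1.5 times to 206 with only the 6 NoDox libraries and no block, and to 4534 without both replicates 1. It moved to 502 with a minimum fold of 1.5 and to 775 at an adjusted p of 0.01. Leaving out 1 library gave between 1064 calls (without day 4 replicate 3) and 3208 (without day 4 replicate 1), and 1281 without day 4 replicate 2. Without day 4 replicate 1, 1702 of the 3208 were higher. For Mixl1 the replicate block gave -3.32 (adjusted p = 0.205), no filter on low counts passed the test at -4.35, and the change without both replicates 1 was 0.73. Leaving out 1 library gave Mixl1 changes from -4.92 to 0.77, positive without day 2 replicate 1 and past the threshold without day 2 replicate 2 or 3. The cause was not tested.

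Among the named genes some that had not passed changed sign. Lefty1 was at -0.047 without both replicates 1. The log2 changes over the 6 fits that left out 1 library ran from -0.22 to 1.11 for Lefty1 (sign changed without day 4 replicate 1), -1.43 to 0.20 for Lefty2 (sign changed without day 2 replicate 3 and day 4 replicate 2 and day 4 replicate 3), -2.02 to 0.45 for Tbx6 (sign changed without day 2 replicate 1). They ran from -0.43 to 4.25 for Sox17 (sign changed without day 4 replicate 1), -2.20 to 0.79 for Cdx2 (sign changed without day 2 replicate 1), -0.0058 to 0.30 for Cdon (sign changed without day 4 replicate 3), and from -0.19 to 0.57 for Dll3 (sign changed without day 2 replicate 2 and day 2 replicate 3 and day 4 replicate 2), -0.23 to 0.0012 for Hes1 (sign changed without day 2 replicate 3), -0.22 to 0.69 for Sox1 (sign changed without day 2 replicate 1 and day 4 replicate 3). The replicate block changed no other call of a named gene than those given with the results, and brought Hoxb1 and Lin28a past the threshold. Depth limits genes near 3 counts a library, such as Pax9 on day 2.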

Other observations

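Genes outside the developmental groups changed as well. Of 13 p53 targets and CDK inhibitor genes tested, 5 fell and none rose by edgeR's test, whereas 2 rose and 6 fell without both replicates 1, and 0 and 1 with the 6 NoDox libraries alone. Trp53inp1, which encodes a p53-induced nuclear protein, had 279, 213 and 179 CPM on day 2 and 80.5, 88.5 and 98.6 CPM on day 4 (-1.33 ± 0.15, adjusted p = 0.000363). Phlda3 had 64.3, 50.7 and 49.4 CPM on day 2 and 36, 31.9 and 28.2 CPM on day 4 (-0.77 ± 0.14, adjusted p = 0.00485). The cell cycle inhibitor gene Cdkn1a had 292, 129 and 124 CPM on day 2 and 58.8, 97 and 79.5 CPM on day 4 (-1.21 ± 0.29, adjusted p = 0.0205), with replicate 1 of day 2 the highest, a change of -0.52 without both replicates 1, and a call lost without day 4 replicate 3 (adjusted p from 0.0137 to 0.0676 over the 6 such fits). Of 7 DNA methylation and demethylation enzyme genes, 2 rose and 2 fell. Dnmt3b and Tet1 fell, as given with the pluripotency genes, while Tet2 had 13.3, 15.7 and 13.7 CPM on day 2 and 23.6, 22.8 and 27.6 CPM on day 4 (0.79 ± 0.19, adjusted p = 0.0211) and Tet3 had 52.3, 75.1 and 67.5 CPM on day 2 and 113, 97.1 and 127 CPM on day 4 (0.79 ± 0.15, adjusted p = 0.00672). The call of Tet2 was lost without day 2 replicate 3 or day 4 replicate 3 (adjusted p from 0.02 to 0.0829 over the 6 such fits).

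Among endoderm genes 2 of 11 tested rose and 3 fell, whereas 5 rose and 4 fell without both replicates 1, and 0 and 0 with the 6 NoDox libraries alone. The chemokine receptor gene Cxcr4 had 26.8, 49.6 and 42.4 CPM on day 2 and 61, 124 and 122 CPM on day 4 (1.37 ± 0.26, adjusted p = 0.0073). The Nodal and Wnt inhibitor gene Cer1 had 1.94, 1.19 and 0.781 CPM on day 2 and 1.26, 7.03 and 6.8 CPM on day 4 (1.94 ± 0.53, adjusted p = 0.0387), with overlap and a change of 2.82 without both replicates 1, and its call was lost with the replicate block (adjusted p = 0.0681) and without day 2 replicate 2 or 3 or day 4 replicate 2 or 3 (adjusted p from 0.00052 to 0.133 over the 6 such fits). Hhex fell (-0.77 ± 0.18, adjusted p = 0.019), as did Trh (-0.99 ± 0.25, adjusted p = 0.0292), calls lost without day 4 replicate 3 (adjusted p from 0.0127 to 0.0833 over the 6 such fits) for Hhex and day 2 replicate 3 or day 4 replicate 3 (adjusted p from 0.01 to 0.108 over the 6 such fits) for Trh. The epithelial factor gene Grhl2 had 8.23, 5.65 and 7.44 CPM on day 2 and 1.85, 1.83 and 1.42 CPM on day 4 (-2.06 ± 0.26, adjusted p = 0.000771). Tfap2c, shared by the surface ectoderm, germ cell and trophoblast lists, had 162, 78.8 and 80.3 CPM on day 2 and 55.1, 24.5 and 20.3 CPM on day 4 (-1.68 ± 0.36, adjusted p = 0.0115). Ascl2, of trophoblast and Wnt-responding progenitors, fell from 6.07, 2.65 and 1.6 to 0.592, 0.447 and 0.269 CPM (-2.97 ± 0.51, adjusted p = 0.00395). Gdf11, a ligand of the posterior growth zone, had 39.7, 40.8 and 35.2 CPM on day 2 and 96.5, 56.4 and 69.7 CPM on day 4 (0.94 ± 0.17, adjusted p = 0.00439). The imprinted gene Snrpn had 98, 84 and 103 CPM on day 2 and 37.5, 63.7 and 60.6 CPM on day 4 (-0.81 ± 0.18, adjusted p = 0.0138), a call lost without day 2 replicate 3 (adjusted p from 0.00876 to 0.0505 over the 6 such fits). Tenm2, a teneurin gene of neuronal contacts, had 0.706, 1.5 and 1.12 CPM on day 2 and 1.77, 20.7 and 24.1 CPM on day 4 (3.81 ± 0.73, adjusted p = 0.00699), high in replicates 2 and 3 of day 4 alone. Cyp2b23, of a family of close copies whose reads may be shared, fell from 15.3, 4.58 and 7.99 to 1.3, 0.285 and 0.231 CPM (-3.93 ± 0.66, adjusted p = 0.00347, and -4.59 without both replicates 1). Shisa6 fell from 21.4, 23.6 and 25.5 to 5.76, 6.59 and 6.19 CPM (-1.93 ± 0.15, adjusted p = 6.18e-05). Ifitm1 fell from 364, 263 and 283 to 207, 93.1 and 81.2 CPM (-1.25 ± 0.28, adjusted p = 0.0163), a call lost without day 4 replicate 2 or 3 (adjusted p from 3.81e-05 to 0.062 over the 6 such fits).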
